A study of Homo sapiens with 12 samples.

Results

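The STAT transcription factor family was examined in HEL cells in which JAK2 had been reduced with short hairpin RNAs. STATs are latent cytoplasmic proteins. JAK kinases bound to cytokine receptors phosphorylate them on a tyrosine, after which they pair through their SH2 domains, enter the nucleus and bind short palindromic DNA motifs. In erythroid and megakaryocytic cells STAT5A and STAT5B act downstream of the erythropoietin and thrombopoietin receptors, which signal through JAK2, and STAT activity is set mainly by this phosphorylation. An array measures the amount of STAT transcript and not phosphorylation, so the values below are transcript levels. Of the 6 genes STAT2, STAT3, STAT4, STAT5A, STAT5B and STAT6, the members are all probe sets that the platform annotation gives to 1 of them alone. The rule found 9 probe sets among 22406, 2 each for STAT3 and STAT6, 3 for STAT5B and 1 each for STAT4 and STAT5A. STAT2 has no probe set of its own name in the annotation used and was not analysed here.

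HEL is a human erythroleukaemia line, described in the labels as an acute myeloid leukaemia line with an activating JAK2 mutation, homozygous per the series text, so all 4 groups carry it. The groups, of 3 arrays each, were cells given the JAK2 hairpin Jak2-10, cells given the JAK2 hairpin Jak2-9, cells given the luciferase hairpin Luc, and cells given GFP, which the labels call both a hairpin control and a vector control. Hairpins were delivered by lentivirus in a puromycin-selectable pLKO vector, and the labels read here name no time between transduction and harvest. Whether the numbered replicates were grown apart is not told by the labels, and the spread behind every p-value could therefore be technical in part.

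As a check of the cell type, the 5 measured erythroid markers had mean log2 intensities of 8.25 (HBZ) to 11.61 (HBE1), against a median of 5.48 over all probe sets. Of 5 megakaryocyte markers 4 lay above that median, led by the platelet integrin subunit ITGA2B at 10.46, with PF4 at 6.74 and PPBP below it at 4.62. CD14, CD163 and CSF1R of monocytes lay at 4.47 to 4.86. CD3D, CD3E, CD3G and LCK of T cells lay at 4.35 to 5.07, whereas the T cell marker CD2 had 8.96. Of 3 B cell markers CD79A (5.77) and CD79B (7.13) lay above the median, and of 4 fibroblast markers DCN did (10.12 at its brightest probe set, 4.71 or less at its others). Jak2-9 replicate 1 stood apart from its group: 2.64% of probe sets lay more than 2-fold away from its group's remaining arrays, a share that was at most 0.161% for any other array. JAK2, the target of both hairpins, was at 63.1% of control at its brighter probe set 205842_s_at (95% interval 53.5% to 74.3%, limma, adjusted p = 0.00260). It was at 60.1% at probe set 205841_at (46.4% to 77.8%, adjusted p = 0.0320), a call that held on leaving out any Jak2-9 array and was lost on leaving out each of the other 9 arrays (adjusted p up to 0.0920). With Jak2-10 alone JAK2 was at 67.0% at the brighter probe set, which did not pass the threshold over all probe sets (limma, adjusted p = 0.0556), although it passed under 7 of the alternative settings given at the end (adjusted p = 0.00201 to 0.0492). At probe set 205841_at JAK2 was at 64.5% with Jak2-10 alone (47.1% to 88.5%, adjusted p = 0.329), which passed in 3 of 22 alternatives. With Jak2-9 alone JAK2 was at 59.3% at the brighter probe set (adjusted p = 0.00569). At 205841_at it was at 56.0% (adjusted p = 0.0412, lost on leaving out 9 of 12 arrays). As each array reads a whole culture, fewer cells with JAK2 transcript and less of it in each cell cannot be told apart.

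No STAT transcript passed the test for a change with JAK2 knockdown. Comparing both JAK2 hairpins with both controls, which asks what follows at the transcript level when JAK2 is reduced, 0 of the 9 STAT probe sets passed the threshold (limma, adjusted p under 0.05), against 3.14% of all probe sets. At an unadjusted p under 0.05 the count was also 0, against 16% of all probe sets. None of the 9 had hairpin arrays and control arrays that did not overlap, against 3.16% of all probe sets. Their log2 fold changes lay between -0.09 and 0.08, 7 above and 2 below 0, with a median of 0.02, and over all probe sets 60.4% lay above 0, with a median of 0.03. On leaving out each array in turn 5 to 8 of the 9 lay above 0. The 95% intervals, taken over all 9 probe sets, ran from 77.6% to 123% of control.

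STAT3, which carries interleukin-6 and G-CSF signals, was read by the brightest and the steadiest of the 9 probe sets. Probe set 208992_s_at had log2 intensities of 11.22, 11.28 and 11.10 in Jak2-10 cells and 11.15, 11.31 and 11.34 in Jak2-9 cells, against 11.21, 11.11 and 11.29 in Luc cells and 11.22 on each of the 3 GFP arrays. Each pair of groups overlapped. The 3 GFP values were the same to within a relative difference of 1e-06, as on 37 probe sets of the table, and 8413 probe sets had the same value on 2 or more arrays, so the lack of spread in this group is not a measure of precision. Both hairpins together were at 102% of control (92.1% to 112%, limma, adjusted p = 0.891). Probe set 208991_at had 11.17, 11.17 and 10.98 in Jak2-10 cells and 11.11, 11.31 and 11.14 in Jak2-9 cells, against 11.12, 11.09 and 11.16 in Luc cells and 11.11, 11.16 and 11.16 in GFP cells. Here too the groups overlapped, at 101% of control (91.6% to 111%, adjusted p = 0.939). Within-group standard deviations were 0.08 on the log2 scale at each STAT3 probe set, and 6.93% and 6.23% of all probe sets had a smaller one. For 208992_s_at this value and the interval take in the GFP group without spread, and its other groups had 0.09 to 0.10.

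STAT5A and STAT5B, the near-identical STATs most closely tied to erythropoietin and thrombopoietin signals, were read by 4 probe sets. STAT5A (probe set 203010_at) had log2 intensities of 9.28, 9.28 and 9.13 in Jak2-10 cells and 9.93, 9.21 and 9.40 in Jak2-9 cells, against 9.29, 9.22 and 9.36 in Luc cells and 9.33, 9.32 and 9.34 in GFP cells. The single high value was that of Jak2-9 replicate 1, 0.62 above its group's remaining arrays, and the other 11 arrays spanned 9.13 to 9.40. Within that span the 3 Jak2-10 arrays lay below the 3 GFP arrays, whereas the Luc arrays overlapped with both; 12.5% of all probe sets had Jak2-10 and GFP arrays that did not overlap. With both hairpins STAT5A was at 104% of control (89.7% to 121%, limma, adjusted p = 0.805).

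STAT5B at its brightest probe set, 212549_at, had 9.61, 9.63 and 9.43 in Jak2-10 cells and 9.53, 9.53 and 9.74 in Jak2-9 cells, against 9.45, 9.60 and 9.71 in Luc cells and 9.53, 9.39 and 9.47 in GFP cells. Jak2-9 cells had the highest group mean (9.60 ± 0.12), against 9.59 ± 0.13 in Luc cells and the lowest, 9.46 ± 0.07, in GFP cells (SD, n = 3 each). Both hairpins were at 104% of control (93.0% to 116%, limma, adjusted p = 0.759). The other STAT5B probe sets were dimmer: 212550_at ranged from 7.32 to 7.81 over the 12 arrays and was at 99.1% of control (86.8% to 113%), and 205026_at ranged from 6.88 to 7.38 and was at 104% of control (91.9% to 119%). The 3 STAT5B probe sets did not follow each other closely over the 12 arrays (Pearson r = 0.03 to 0.50, pairs of probe sets on the same arrays), whereas those of JAK2 did (r = 0.95).

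STAT6, which carries interleukin-4 and interleukin-13 signals, had the widest difference between the hairpins among the 9 probe sets. Probe set 201331_s_at had 8.01, 8.26 and 7.85 in Jak2-10 cells and 8.75, 8.26 and 8.38 in Jak2-9 cells, against 8.35, 8.05 and 8.27 in Luc cells and 8.27, 8.05 and 8.02 in GFP cells. All 3 Jak2-10 arrays lay at or below the lowest Jak2-9 array, the nearest values being equal at 2 decimals, and each control group overlapped with each hairpin group. Both hairpins together were at 106% of control (91.1% to 123%, limma, adjusted p = 0.722). The second STAT6 probe set, 201332_s_at, had a mean log2 intensity of 5.53, close to the median of all probe sets, and may read mostly background. It ranged from 5.25 to 5.98 and was at 94.2% of control (77.6% to 114%, adjusted p = 0.781). It did not show the order of the groups seen at the brighter probe set (r = 0.37 between them over 12 arrays).

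STAT4, best known in T and NK cells downstream of interleukin-12, had a signal above the median of all probe sets in this erythroid line. Probe set 206118_at had log2 intensities of 8.06, 8.14 and 7.48 in Jak2-10 cells and 8.14, 8.36 and 8.04 in Jak2-9 cells, against 8.11, 8.05 and 7.85 in Luc cells and 8.02, 8.06 and 7.996 in GFP cells. The low value was that of Jak2-10 replicate 3, 0.62 below its group's remaining arrays. Both hairpins were at 101% of control (86.5% to 119%, limma, adjusted p = 0.944).

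**Figure D1:**
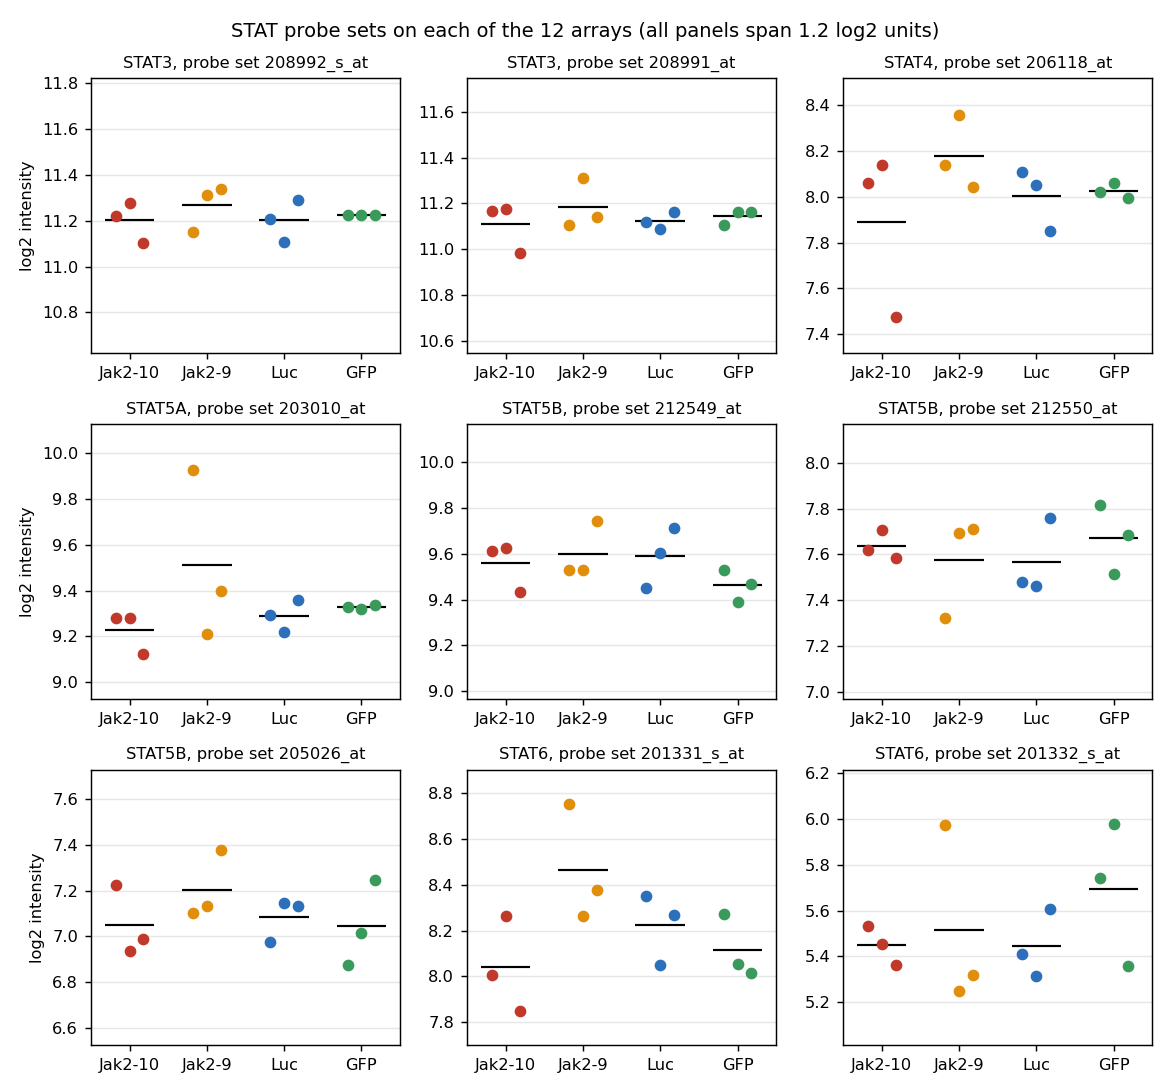
Log2 intensity (vertical axis) of the 9 STAT probe sets on each array, by group, with points for replicates 1 to 3 and a line at the group mean (n = 3). Every pair of groups overlaps except Jak2-10 and Jak2-9 at STAT6 201331_s_at (as at 10.9% of all probe sets) and Jak2-10 and GFP at STAT5A (as at 12.5%), and the high STAT5A point at 9.93 is Jak2-9 replicate 1.

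The hairpins were then set against the controls one at a time. With Jak2-10, 0 of 9 STAT probe sets passed (limma), against 1.37% of all probe sets, and 0 passed at an unadjusted p under 0.05, against 7.1%. None had Jak2-10 arrays that did not overlap with the controls, against 5.88% of all probe sets. With this hairpin 2 of 9 lay above 0, with a median log2 fold change of -0.03, beside 56.3% of all probe sets above 0 and a median of 0.02. Without Jak2-10 replicate 3 it was 6 of 9, with a median of 0.04, and without Luc replicate 1 it was 0 of 9, with a median of -0.04. The lowest was STAT6 201331_s_at at 91.5% of control (76.0% to 110%, adjusted p = 0.972), and STAT5A was at 94.6% (78.6% to 114%, adjusted p = 0.996). STAT4 was at 91.8% of control (75.5% to 112%), a log2 fold change of -0.12. Without Jak2-10 replicate 3 the log2 fold change became 0.08 for STAT4, -0.03 for STAT6 201331_s_at (from -0.13) and -0.03 for STAT5A (from -0.08).

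With Jak2-9, 0 of 9 STAT probe sets passed (limma), against 4.27% of all probe sets. At an unadjusted p under 0.05 the count was 1, STAT6 201331_s_at, against 22.2% of all probe sets, and none had Jak2-9 arrays that did not overlap with the controls, against 12.2%. That probe set was at 123% of control (102% to 148%, log2 fold change 0.29 ± 0.12, SE, adjusted p = 0.184), with all 3 Jak2-9 arrays above the control mean of 8.17 but 1 of them within the range of the controls. STAT5A was at 115% (95.6% to 138%, adjusted p = 0.358) and STAT4 at 112% (92.2% to 136%, adjusted p = 0.491). Of the 9 probe sets 7 lay above 0, with a median of 0.07, beside 60.1% of all probe sets above 0 and a median of 0.04. Of the 5 measured erythroid markers HBZ, an embryonic globin, rose with Jak2-9 (0.62, limma, adjusted p = 0.0407), where 3.74% of all genes passed. The others did not pass: HBE1 had 0.33 (adjusted p = 0.0589), GATA1 0.30 (0.115), KLF1 0.28 (0.165) and TAL1 -0.14 (0.419). The HBZ call is given for the main fit only, and the part of HBZ in the STAT values was not tested.

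The array that stood apart carried much of the Jak2-9 values of STAT5A and STAT6. On Jak2-9 replicate 1, 4 of the 9 probe sets lay more than 0.3 on the log2 scale away from its group's remaining arrays, a count that was 0 to 2 for every other array. STAT5A (0.62), STAT6 201331_s_at (0.43) and STAT6 201332_s_at (0.69) were higher there, and STAT5B 212550_at was lower (-0.38). Without that array the log2 fold change of STAT5A with Jak2-9 was -0.00 (limma, adjusted p = 0.991), that of STAT6 201331_s_at 0.15 (adjusted p = 0.669) and that of STAT6 201332_s_at -0.28 (adjusted p = 0.387). JAK2 was lowest on the same array, at 9.37 on the log2 scale (205842_s_at), and the remaining Jak2-9 arrays had 9.89 and 10.09.

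**Figure D2:**
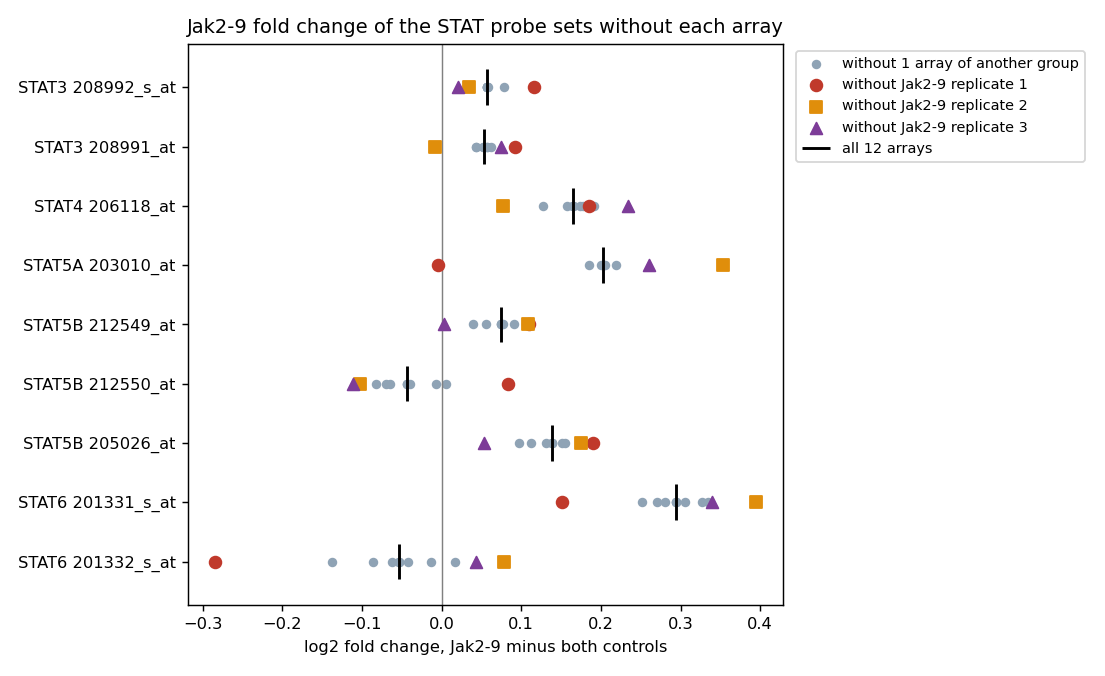
Log2 fold change of each STAT probe set with Jak2-9 against both controls (horizontal axis), with all 12 arrays (bar) and without each array in turn (points). STAT5A moves from 0.20 to -0.00 without Jak2-9 replicate 1, and STAT6 201331_s_at from 0.29 to 0.15.

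The difference between the hairpins was tested directly. In Jak2-10 minus Jak2-9, 0 of 9 STAT probe sets passed (limma), as did 0% of all probe sets, and 1 passed at an unadjusted p under 0.05, against 8.56% of all probe sets. This was STAT6 201331_s_at, at a mean log2 intensity of 8.04 ± 0.21 in Jak2-10 cells and 8.46 ± 0.25 in Jak2-9 cells (SD, n = 3 each), a difference of -0.42 ± 0.14 (SE, 95% interval -0.73 to -0.11, adjusted p = 0.572). It was also the 1 STAT probe set whose Jak2-10 and Jak2-9 arrays did not overlap, against 10.9% of all probe sets. STAT4 differed by -0.29 (-0.62 to 0.04) and STAT5A by -0.28 (-0.59 to 0.03), both with an adjusted p of 0.572. The STAT4 difference was -0.08 without Jak2-10 replicate 3, and the STAT5A difference was -0.08 and that of STAT6 201331_s_at -0.28 without Jak2-9 replicate 1. At STAT3 the hairpins differed by -0.07 (208992_s_at) and -0.08 (208991_at), with intervals of -0.27 to 0.13 and -0.28 to 0.12.

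The 2 controls gave the background of these comparisons. In Luc minus GFP, 0 of 9 STAT probe sets passed (limma), as did 0% of all probe sets, and 0 passed at an unadjusted p under 0.05, against 2.5% of all probe sets. None had Luc arrays that did not overlap with the GFP arrays, against 9.73% of all probe sets. The log2 differences ran from -0.25 (STAT6 201332_s_at) to 0.13 (STAT5B 212549_at). Ordered by group mean, Jak2-9 was highest at STAT3, STAT4, STAT5A, STAT6 201331_s_at and 2 of 3 STAT5B probe sets. The share of all probe sets with Jak2-9 highest was not counted. Of all probe sets 60.1% lay above 0 in Jak2-9 minus both controls and 45% in Jak2-10 minus Jak2-9. Without Jak2-9 replicate 1 the log2 fold change of STAT5A in Jak2-9 minus both controls was -0.00. Of the 6 pairs of groups, none gave a STAT probe set past the threshold: the lowest adjusted p was 0.247 (limma), for STAT6 201331_s_at in Jak2-9 minus GFP, so no neighbours in the order of levels were told apart. Over all probe sets the share that passed was 2.84% for Jak2-9 minus Luc, 1.43% for Jak2-9 minus GFP, 1.45% for Jak2-10 minus Luc, 0.326% for Jak2-10 minus GFP and 0 for the other pairs. Arrays did not overlap at 21.6% of all probe sets for Jak2-9 and Luc, 20.5% for Jak2-9 and GFP and 14.1% for Jak2-10 and Luc, and at 0 of the 9 STAT probe sets in each of these pairs.

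**Figure D3:**
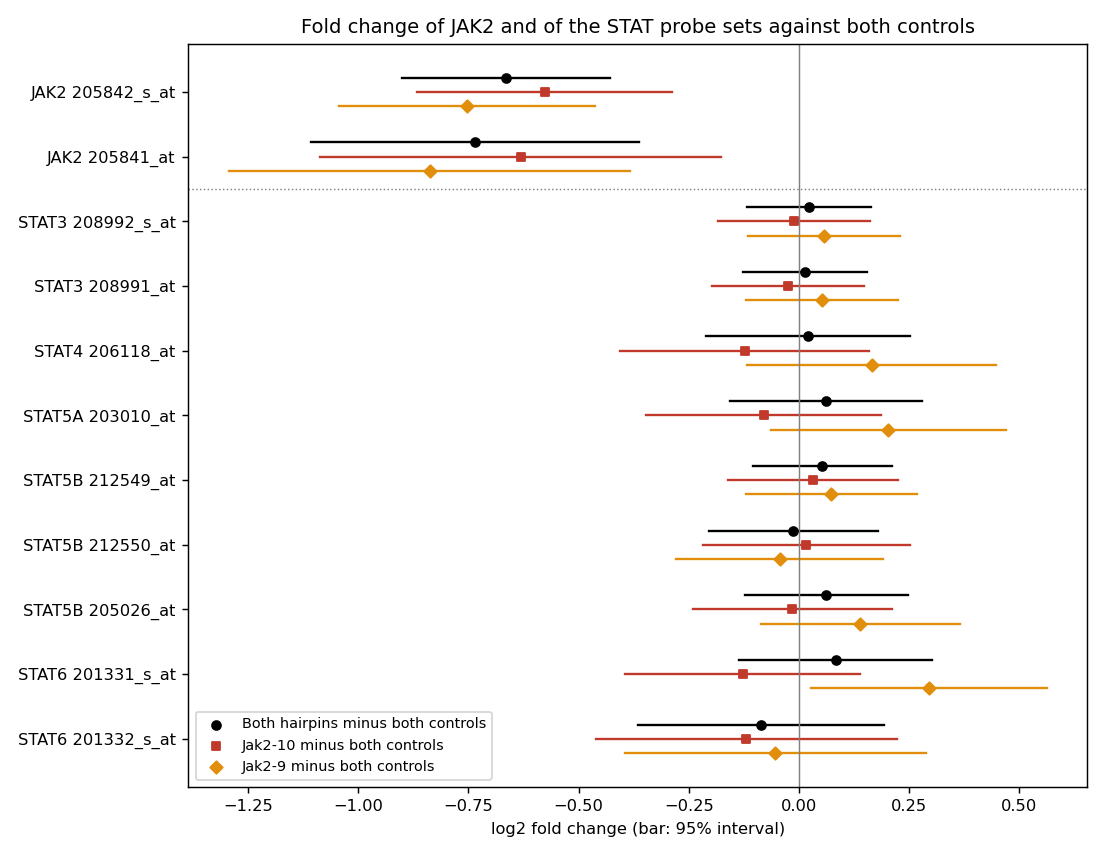
Log2 fold change (horizontal axis) of 2 JAK2 and 9 STAT probe sets against both controls, with bars for 95% intervals from limma, for both hairpins together, Jak2-10 and Jak2-9. All JAK2 intervals lie below 0, and the STAT intervals include 0 except that of STAT6 201331_s_at with Jak2-9, which runs from 0.03 to 0.56 (adjusted p = 0.184).

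STAT5B, STAT5A and STAT3 are next to each other among the protein-coding genes of chromosome 17, whereas STAT4 lies on chromosome 2 and STAT6 on chromosome 12 (RefSeq, GRCh38.p14). Read at the brightest probe set of each gene, the 12 arrays gave Pearson correlations of 0.09 between STAT5A and STAT5B, -0.05 between STAT5A and STAT3 and 0.51 between STAT5B and STAT3. Without Jak2-9 replicate 1 these became 0.43, 0.65 and 0.52. The highest value among the 5 genes was 0.82, between STAT5A and STAT6, and it became 0.58 without Jak2-9 replicate 1. These points share arrays and groups and are given as a description.

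Genes whose log2 intensity ran most like each member over the 12 arrays were sought among 6233 genes with a mean log2 intensity of at least 6. For STAT3 they were the chaperonin subunit CCT4, RRAGD, a GTPase of the amino acid sensing pathway, and the basement membrane gene NID1 (r = 0.86 for each). For STAT5B they were the DNA helicase ERCC3 (r = 0.84), IDI1, an isomerase of cholesterol synthesis (0.82), and POLR2J2 (0.81), one of near-identical gene copies. Leaving out the 2 arrays farthest from the median of the member gave 0.78, 0.82 and 0.78 for STAT3 and 0.92, 0.71 and 0.58 for STAT5B. For STAT4 they were the kinase CAMK2G (0.94), the ubiquitin ligase RNF139 (0.90) and the carbonic anhydrase CA2 (0.90). Leaving out Jak2-10 replicate 3 and Jak2-9 replicate 2, the arrays farthest from the STAT4 median, these became 0.79, 0.66 and 0.45. For STAT5A they were the myosin MYO19 (0.99), the phosphatase CDC25B (0.97) and CPSF1, a subunit of the polyadenylation machinery (0.97), and for STAT6 the RNA polymerase subunit POLR1C (0.95), the semaphorin receptor PLXND1 (0.94) and PIH1D1 (0.94). Without Jak2-9 replicate 1 and Jak2-10 replicate 3 the STAT5A values became 0.82, 0.72 and 0.49 and the STAT6 values 0.82, 0.80 and 0.90. Over the 12 arrays Spearman's rho ran from 0.60 (CA2) to 0.94 (PIH1D1), and the points share arrays and groups.

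Of the genes around the STATs in the pathway, each read first at its brightest probe set, few passed the threshold; calls at other probe sets of the same genes are given after the lists. At that probe set 2.2% of 11940 genes passed with both hairpins, 0.812% with Jak2-10 and 3.74% with Jak2-9. Among 4 JAK kinases JAK2 fell, and JAK1, JAK3 and TYK2 had log2 fold changes of -0.08, -0.02 and -0.08. Among 27 cytokine receptor subunits 2 rose and 0 fell with both hairpins, with a median of 0.11, where the median of all genes was 0.04. IL2RB, a chain of the interleukin-2 and interleukin-15 receptors, had a log2 fold change of 0.38 ± 0.09 (SE, limma, adjusted p = 0.0299). IFNAR2, a chain of the type I interferon receptor that binds STAT2, had 0.31 ± 0.06 (adjusted p = 0.00741) at probe set 204785_x_at, but its second probe set 204786_s_at went the other way (-0.15, adjusted p = 0.413). IFNAR2 passed on leaving out each array and was lost with the mean of its probe sets (adjusted p = 0.497) and with Luc alone as control (0.0630). IL2RB passed only without Jak2-10 replicate 2, Jak2-9 replicates 1 or 3, Luc replicate 1 or GFP replicate 3, and without each of the other 7 arrays its adjusted p was as high as 0.0967. IL2RB was also lost with the replicate block (0.0501), with an intensity trend (0.0706) and with GFP (0.168) or Luc (0.1004) alone as control.

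At their brightest probe sets the inhibitors held no call. Among 17 SOCS, PIAS, phosphatase and adaptor genes that restrain JAK-STAT signals, 0 passed with both hairpins or with either one (limma), and the lowest p-values were those of the phosphatases PTPN6 (0.20 ± 0.08, adjusted p = 0.267) and PTPN11 (-0.20 ± 0.09, adjusted p = 0.285). With Jak2-9, PTPN11 passed with quantile normalization (0.0426) and without Jak2-9 replicate 3 (0.0238), and PTPN6 with an intensity trend (0.0453) and without Jak2-9 replicate 2 (0.0421) or 3 (0.0491). Among 9 STAT partners, coactivators and transport factors 0 passed, with a median of -0.13. The nearest were the importin KPNA1 (0.15, adjusted p = 0.255) and the deacetylase HDAC3 (0.19, adjusted p = 0.379), which passed with Jak2-9 without its replicate 2 (0.0383).

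STAT target lists, which share some genes with each other and with the inhibitors, were read in the same way. By mean level, 10 of 17 STAT5, 12 of 20 STAT3 and 3 of 11 STAT6 targets lay above the median of all probe sets. So did 12 of 21 interferon targets and 2 of 8 STAT4 targets. The remaining targets were dim and may read mostly background, so a change in them could be missed. Of 17 STAT5 targets 0 passed with both hairpins, with Jak2-10 or with Jak2-9 (limma). With both hairpins 15 of 17 lay above 0, with a median of 0.11, beside 63.5% of all genes above 0 and a median of 0.04. The survival kinase PIM2 (0.23 ± 0.07, SE, adjusted p = 0.152) and the cyclin CCND1 (0.18 ± 0.07, adjusted p = 0.249) had the lowest p, CCND1 at a mean log2 intensity of 4.53, below the median of all probe sets; PIM2 passed with Jak2-9 once each array was centred on its median (0.0486). Of 20 STAT3 targets 0 passed with both hairpins, and the transcription factor CEBPB came nearest (0.34 ± 0.09, adjusted p = 0.0697), with all 6 hairpin arrays above all 6 control arrays, as at 3.16% of all probe sets. CEBPB came under the threshold once each array was centred on its median (adjusted p = 0.0232), with array weights (0.0320), with the hairpin as a random block (0.0308), or when Jak2-9 replicate 3 was left out (0.0299). In the random block the consensus correlation of arrays within a group was -0.0445. Passing there does not show that a call holds with the hairpin as the unit. Of 11 STAT6 targets 1 rose, the transglutaminase TGM2 (0.41 ± 0.09, adjusted p = 0.0274). Of 21 interferon targets of the complex that holds STAT2, and of 8 STAT4 targets, 0 passed with both hairpins at their brightest probe sets. The nearest of these were IFI6 (0.32, adjusted p = 0.103) and IFITM1 (0.19, adjusted p = 0.191) among interferon targets, and PRF1, the perforin of killer lymphocytes (0.43, adjusted p = 0.0536), and the protease FURIN (0.27, adjusted p = 0.304) among STAT4 targets. PRF1 passed in 8 alternatives, with adjusted p of 0.0134 (array weights) to 0.0489 (without the dimmest probe sets), among them the replicate block (0.0424) and leaving out replicate 3 of Jak2-10 (0.0477) or of Jak2-9 (0.0246). IFI6 passed in 1, leaving out Jak2-9 replicate 3 (0.0356).

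TGM2 had log2 intensities of 8.31, 8.37 and 8.33 in Jak2-10 cells and 8.84, 8.28 and 8.63 in Jak2-9 cells, against 8.21, 7.87 and 7.996 in Luc cells and 7.94, 8.13 and 8.14 in GFP cells. All hairpin arrays lay above all control arrays, though by little between Jak2-9 replicate 2 and Luc replicate 1. Its call with both hairpins held without each Jak2-9 array, Luc replicate 1 or GFP replicate 3, and was lost without each of the other 7 arrays, with an adjusted p of up to 0.0908. It was also lost when the TGM2 probe sets were averaged (0.22, adjusted p = 0.176) and with GFP (0.190) or Luc (0.0746) alone as control.

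With Jak2-10 alone, 0 genes of any of these lists passed at the brightest probe set (limma). With Jak2-9 alone, beside JAK2, IFNAR2 (0.40, adjusted p = 0.00573), IL2RB (0.46, adjusted p = 0.0304) and TGM2 (0.54, adjusted p = 0.0189), 3 genes rose and 1 fell at that probe set. FGG, a fibrinogen chain of the STAT3 list that lay at 4.43 on the log2 scale, below the median of all probe sets, had 0.39 (adjusted p = 0.0375). PRF1 had 0.53 (adjusted p = 0.0434) and the membrane protein IFITM1 0.33 (adjusted p = 0.0422). IL6ST, the shared interleukin-6 receptor chain that activates STAT3, was at -0.63 (adjusted p = 0.0463), and at -0.50 with both hairpins (adjusted p = 0.0633, and 0.0215 to 0.0419 in the 3 alternatives under which it passed). Of its 4 dimmer probe sets 3 lay above 0 with both hairpins (0.04 to 0.13) and 1 below (-0.25), and the mean of all gave -0.23 with Jak2-9 (adjusted p = 0.192). The Jak2-9 call of IL6ST was also lost in a fit of 1 probe set per gene (0.0510) and with GFP (0.169) or Luc (0.0740) alone as control, and that of IFITM1 in the same fit (0.0506), with the replicate block (0.0575), with quantile normalization (0.0661), with only the arrays compared (0.0759) and with GFP (0.123) or Luc (0.0963) alone. FGG was lost with only the arrays compared (0.0762) and with GFP (0.153) or Luc (0.0596) alone, and PRF1 with GFP alone (0.214). Without Jak2-9 replicate 1 the adjusted p was 0.107 for IL2RB, 0.0786 for TGM2, 0.164 for FGG, 0.186 for PRF1, 0.174 for IFITM1 and 0.136 for IL6ST. Only IFNAR2 among these passed on leaving out each array. TGM2 passed on leaving out any array but that one, IL2RB was lost on leaving out 6 of 12 arrays, PRF1 on 8, and FGG, IFITM1 and IL6ST on 9 each. In other settings the Jak2-9 call of IFNAR2 was lost with the mean of its probe sets (limma, adjusted p = 0.473). That of TGM2 was lost with the mean of its probe sets (0.0629), with only the arrays compared (0.0528) and with GFP alone (0.0865). That of IL2RB was lost with an intensity trend (0.0551), with only the arrays compared (0.0548) and with GFP (0.105) or Luc (0.0692) alone.

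Some dimmer probe sets of the same genes held calls, and at PIAS1, IFI44 and BIRC5 the brightest probe set held none. A reading of all 215 probe sets of the 118 list genes was added after the first results were seen. Of these probe sets 3.26% passed with both hairpins, 0.93% with Jak2-10 and 6.05% with Jak2-9. Over all probe sets the shares were 3.14%, 1.37% and 4.27%. The share with both hairpins was thus near that of all probe sets, and the share with Jak2-10 was below it. The calls below describe single probe sets and are not a trait of the lists. The calls with both hairpins and with Jak2-9 include those of both JAK2 probe sets. PIAS1, a SUMO ligase that restrains STATs, had log2 intensities at probe set 222371_at of 4.77, 4.69 and 4.92 in Jak2-10 cells and 4.05, 4.39 and 4.56 in Jak2-9 cells, against 5.97, 6.01 and 5.78 in Luc cells and 5.78, 5.31 and 5.19 in GFP cells. All hairpin arrays lay below all control arrays. The log2 fold change was -1.11 ± 0.11 with both hairpins (SE, limma, adjusted p = 3.653e-05), -0.88 with Jak2-10 (0.00343) and -1.34 with Jak2-9 (6.36e-05), and each call held on leaving out each array. The Jak2-10 call was lost with GFP alone as control (0.158). The brightest PIAS1 probe set, 217864_s_at at a mean of 9.82, had -0.16 (adjusted p = 0.371), and the mean of the 4 PIAS1 probe sets gave -0.42 with both hairpins (0.0774) and -0.26 with Jak2-10 (0.853).

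IFI44, an interferon-induced gene, had at probe set 214059_at 4.49, 4.83 and 4.88 in Jak2-10 cells and 4.62, 4.81 and 4.57 in Jak2-9 cells, against 5.27, 5.85 and 5.67 in Luc cells and 5.57, 4.98 and 5.23 in GFP cells. Here too all hairpin arrays lay below all control arrays. The log2 fold change was -0.73 ± 0.12 with both hairpins (SE, limma, adjusted p = 0.00246), -0.70 with Jak2-10 (0.0288) and -0.76 with Jak2-9 (0.00947). The calls with both hairpins and with Jak2-9 held on leaving out each array and were lost with GFP alone as control (0.106 and 0.117), and that with Jak2-10 was lost on leaving out 7 of 12 arrays (up to 0.226), with GFP alone as control (0.448) and with the mean of the IFI44 probe sets (0.0755). The brighter IFI44 probe set, 214453_s_at at 8.60, had -0.18 (adjusted p = 0.283). The mean levels of PIAS1 222371_at (5.12) and IFI44 214059_at (5.06) lay below the median of all probe sets. With Jak2-9 the apoptosis inhibitor BIRC5 of the STAT3 list also passed at probe set 202094_at (0.35, limma, adjusted p = 0.0342). That call was lost on leaving out 8 of 12 arrays, with the mean of its probe sets (0.116) and with GFP alone as control (0.195). It was also lost with an intensity trend (0.0515) and with only the arrays compared (0.0625). The brightest BIRC5 probe set, 202095_s_at, had 0.23 (adjusted p = 0.166), and 210334_x_at had 0.04 (0.834). TGM2 passed with Jak2-9 at 211573_x_at (0.50, adjusted p = 0.0236), lost on leaving out 3 arrays.

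**Figure D4:**
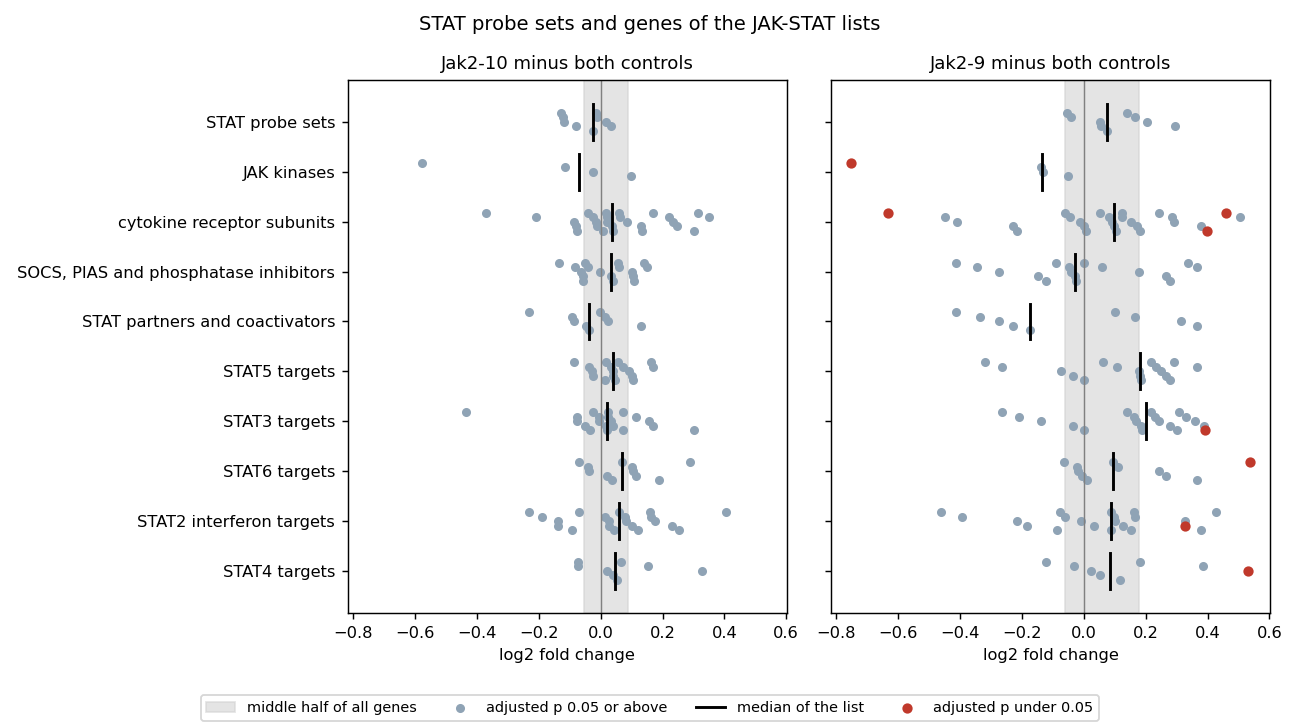
Log2 fold change (horizontal axis) of the 9 STAT probe sets and of the genes of 9 JAK-STAT lists, each at its brightest probe set, for Jak2-10 (left) and Jak2-9 (right) against both controls. Red points passed an adjusted p of 0.05, bars are list medians, and the grey band is the middle 50% of all genes; no red point lies in the left panel, which does not hold the dimmer probe sets of PIAS1 and IFI44.

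Promoters were read for the motifs that STAT dimers bind, TTCNNNGAA and, for STAT6, TTCNNNNGAA, in the 250 bases before each RefSeq start site. Both motifs equal their reverse complement, so each match lies on both strands, and a match of one cannot be a match of the other, since their spacers differ by a base. TTCNNNGAA was in the promoters of 8.03% and TTCNNNNGAA in those of 6.34% of 9593 genes on the array that had a sequence. Among target genes with a sequence, TTCNNNGAA was in 2 of 11 for STAT5, 2 of 12 for STAT3 and 2 of 7 for STAT6. It was in 6 of 15 interferon targets (40%) and 1 of 8 STAT4 targets. TTCNNNNGAA was in 0 of 7 STAT6, 0 of 11 STAT5, 0 of 12 STAT3, 2 of 15 interferon and 1 of 8 STAT4 targets. All 5 measured STAT genes had a sequence. TTCNNNGAA was in 0 of them, and TTCNNNNGAA in 1, STAT5A, upstream of at least 1 of its 3 start sites. Among the 11 STAT5 targets with a sequence CISH and BCL6 held TTCNNNGAA. CISH had 4 matches, and BCL6 had 1 match upstream of at least 1 of its 2 start sites. These 3 sequences are shown 5′ to 3′ on the strand of the gene, with the matches in capitals, since they place STAT motifs beside the transcripts that were measured (CISH chr3:50611775-50612024, minus strand; BCL6 chr3:187745469-187745718, minus strand; STAT5A chr17:42287189-42287438, plus strand; RefSeq, GRCh38.p14).
CISH: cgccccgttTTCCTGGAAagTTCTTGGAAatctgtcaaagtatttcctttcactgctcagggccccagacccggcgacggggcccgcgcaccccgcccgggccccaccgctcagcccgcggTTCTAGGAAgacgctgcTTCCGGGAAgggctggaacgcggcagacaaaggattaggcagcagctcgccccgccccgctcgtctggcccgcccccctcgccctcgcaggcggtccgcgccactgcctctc
BCL6: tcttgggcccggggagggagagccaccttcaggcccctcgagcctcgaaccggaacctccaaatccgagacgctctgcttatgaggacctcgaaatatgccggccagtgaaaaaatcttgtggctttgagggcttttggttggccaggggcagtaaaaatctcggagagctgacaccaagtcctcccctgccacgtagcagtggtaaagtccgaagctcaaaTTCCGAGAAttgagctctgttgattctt
STAT5A: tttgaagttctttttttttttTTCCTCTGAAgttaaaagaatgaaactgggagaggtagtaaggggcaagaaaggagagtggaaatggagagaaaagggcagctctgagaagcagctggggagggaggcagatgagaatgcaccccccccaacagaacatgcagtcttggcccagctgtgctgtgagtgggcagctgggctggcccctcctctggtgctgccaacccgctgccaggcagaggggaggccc

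CISH and BCL6 are named for these matches and not for their values. CISH encodes a cytokine-induced inhibitor of receptor signals and is a classic STAT5 target. It had log2 intensities of 8.43, 8.43 and 8.52 in Jak2-10 cells and 8.89, 8.54 and 8.43 in Jak2-9 cells, against 8.13, 8.37 and 8.53 in Luc cells and 8.32, 8.51 and 8.29 in GFP cells. The groups overlapped, and the log2 fold change with both hairpins was 0.18 ± 0.09 (SE, 95% interval -0.01 to 0.38, limma, adjusted p = 0.350). BCL6, a transcriptional repressor, had a mean of 4.52, below the median of all probe sets, and a log2 fold change of 0.15 (-0.01 to 0.32, adjusted p = 0.344). A match is a description of these letters and not a bound site.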

How the data were processed

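Per the submitters' processing notes the arrays were processed with RMA, which subtracts background, quantile normalizes and summarises probes; no version of it was named there. Per the labels' protocols, linear amplification started from 20 ng of RNA. The authors deposited linear intensity values for 22930 probe sets on 12 arrays, which were put on a log2 scale here without a pseudocount; no detection calls were used. After leaving out 524 control probe sets, 22406 were tested, of which 19415 had 1 gene symbol, 125 several and 2866 none. Median intensity per array was 42.8 to 46.4, and precision is limited by having 3 arrays a group.

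Group means were fitted to all 12 arrays (limma 3.58.1, R 4.3.3), with Benjamini-Hochberg adjustment over all probe sets and a threshold of 0.05. The fit was tested on simulated data. Figures and promoter searches used Python 3.11.15. Members and lists were chosen with earlier results of these data known. By rule, the text names all STAT probe sets, JAK2, from each list up to 3 genes that passed in a comparison (failing that, the 2 genes of lowest p with both hairpins), and the 3 genes most like each member by Pearson correlation; CISH and BCL6 were added for their promoters, and dimmer probe sets of list genes that passed after results were seen. Alternatives were a replicate block, other scalings, filters, probe set rules, variances, weights, controls and arrays.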

Additional observations from a re-analysis of the deposited data

How the results depend on the processing

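The count of 0 called STAT probe sets held in every comparison under every alternative run with adjusted p-values, including the replicate block (0 in each of 5 comparisons; same-numbered arrays deviated together at r = -0.14 to 0.19, over 0.1 in 4 of 18 pairs, so the numbers were not taken as a pairing) and leaving out each array in turn (0 to 0). With unadjusted p-values it was 1 with Jak2-9 and 1 in Jak2-10 minus Jak2-9. The lowest adjusted p of any STAT probe set under an alternative was 0.0922, for STAT5A with Jak2-9 without its replicate 2. Fold changes near 0 changed sign with the setting: STAT5B 212550_at with both hairpins did so in 8 of 23 alternatives (-0.07 to 0.05), and STAT5A ran from -0.04 to 0.14. The numbers of all probe sets called differed between settings: with both hairpins up to 1209 (array weights) against 704, and 218 in a fit of 11940 genes at their brightest probe sets in place of 22406 probe sets, 321 to 2020 against 956 with Jak2-9, and 73 to 591 against 308 with Jak2-10, the cause of which was not tested. Luc minus GFP gave up to 9 with array weights against 0. Median centring shifted the fold changes of all probe sets by a median of 0.03 with both hairpins. At its brighter probe set JAK2 with Jak2-10 passed with quantile normalization (0.0366), without the dimmest 30% of probe sets (0.0492) and with an intensity trend (0.0253). It also passed there with array weights (0.00261), with only the arrays compared (0.00319), and without Jak2-9 replicate 1 (0.00201) or 3 (0.0269).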
